A study of Homo sapiens with 12 samples.

Results

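Among the m6A peaks of 143B cells, 4 replication-dependent histone genes, H2AC11, H2BC21, H3C10 and H4C8, are described here, 1 for each of the 4 core histones. They were picked by their Entrez gene numbers (8969, 8349, 8357 and 8365) in the name column of the peak lists. They were selected on having peaks in these same lists, so their calls are given as a description, with no test. They are 4 of 17 replication-dependent histone genes with a peak in any library, from a list of 70 such genes, and 4 of the 10536 genes with any peak.

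Nucleosomes wrap DNA around a core of histones H2A, H2B, H3 and H4. Most of the protein for new chromatin comes from replication-dependent genes, which lie in clusters, lack introns and are transcribed chiefly in S phase. Their mRNAs are unusual among animal mRNAs, since most end in a conserved stem-loop bound by SLBP (stem-loop binding protein) and carry no poly(A) tail, although some of these genes, H2BC21 among them, are known also to give polyadenylated transcripts. N6-methyladenosine (m6A) is the commonest internal mark of mRNA, and ALKBH5 is an enzyme that removes it.

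The mark was mapped by MeRIP-seq, which sequences RNA fragments that an anti-m6A antibody captures, in 143B, an established human osteosarcoma line. Cells were transfected with siRNAs against ALKBH5 (the knockdown) or with scrambled siRNA, both with the lipid reagent RNAiMAX, and harvested at 48 h. The 12 samples were an immunoprecipitate and an input of each siRNA, in replicates 1 to 3, and only the 6 immunoprecipitates, each with its own peak list, were analysed here. Replicate 2 started from total RNA with the Magna MeRIP kit and antibody MABE1006, and replicates 1 and 3 from polyadenylated RNA, replicate 1 with a Synaptic Systems antibody and replicate 3 with ABE572. That leaves 2 total RNA libraries and 4 poly(A) libraries, among which RNA type, antibody and kit cannot be told apart. Other label fields list the Synaptic Systems antibody and total RNA for every library, so these differences rest on the protocol text. The labels give an Illumina stranded mRNA guide for library preparation of all replicates, and whether its poly(A) selection was applied to replicate 2 is not given in the sources used here. Nothing in the labels says whether replicates were separate cultures, so any spread between them may be technical.

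The lists held 17563, 5917 and 18360 peaks in knockdown replicates 1, 2 and 3, and 15139, 5677 and 18724 peaks in the scrambled replicates. The genes named in them numbered 8267, 3373 and 9125 for knockdown replicates, against 7010, 3305 and 9288 for scrambled replicates. The lists hold no read counts, so the depth is unknown and no interval for it can be given. A gene is "called" in a library whose list has a peak with its number, and a gene without a call may still carry the mark. In bulk RNA, fewer cells that express a gene and less RNA per cell cannot be told apart, and neither can less RNA and less of the mark. Of 9 markers of the osteoblast lineage, 5 were called in at least 1 library (among them RUNX2 and SPP1 in 5 each, COL1A1 in 3 and BGLAP in 1), and COL1A2, SPARC, ALPL and IBSP in none. Of the leukocyte markers only CD14 was called, in 3 libraries, while PTPRC, CD3E and the 3 epithelial and 3 endothelial markers were called in none, which are calls and not RNA levels.

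The sequence just upstream of each gene is shown because it is the sequence feature of the 4 genes that could be read here without using their peaks. Each is the 250 bases before the gene's start in RefSeq's GRCh38.p14 table, 5′ to 3′ along the transcribed strand, and capitals mark each motif match on either strand. Searches were made for the letters TATAA of the core promoter's TATA box. A second search was for CCAAT, the site of NF-Y. The third was for the octamer, ATGCAAAT. They lie at chr6:27132793-27133042 (H2AC11, plus strand), chr1:149886683-149886932 (H2BC21, minus strand), chr6:27809801-27810050 (H3C10, plus strand) and chr6:26285535-26285784 (H4C8, minus strand), a different build from the peaks.
H2AC11: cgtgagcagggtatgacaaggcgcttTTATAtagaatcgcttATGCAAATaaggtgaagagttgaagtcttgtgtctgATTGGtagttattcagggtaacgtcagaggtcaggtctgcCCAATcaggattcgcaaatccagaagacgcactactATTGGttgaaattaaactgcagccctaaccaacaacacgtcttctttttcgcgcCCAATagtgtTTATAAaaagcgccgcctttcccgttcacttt
H2BC21: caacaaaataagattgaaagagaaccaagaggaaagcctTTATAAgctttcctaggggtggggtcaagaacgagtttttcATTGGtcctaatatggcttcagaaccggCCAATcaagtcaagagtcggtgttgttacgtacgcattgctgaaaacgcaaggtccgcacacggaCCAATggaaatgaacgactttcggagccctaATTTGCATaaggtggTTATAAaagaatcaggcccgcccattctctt
H3C10: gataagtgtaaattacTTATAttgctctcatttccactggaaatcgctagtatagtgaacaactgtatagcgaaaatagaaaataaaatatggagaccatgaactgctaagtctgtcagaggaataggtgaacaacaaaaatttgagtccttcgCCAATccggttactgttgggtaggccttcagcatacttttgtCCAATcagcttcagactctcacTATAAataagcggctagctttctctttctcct
H4C8: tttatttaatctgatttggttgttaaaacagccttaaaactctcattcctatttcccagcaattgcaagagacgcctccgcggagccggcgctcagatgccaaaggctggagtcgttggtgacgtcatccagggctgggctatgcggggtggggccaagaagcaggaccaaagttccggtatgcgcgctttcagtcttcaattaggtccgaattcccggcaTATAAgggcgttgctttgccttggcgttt
TATAA was present in 4 of 4 members, in 63 of 69 promoters of the replication-dependent list (91.3%) and in 18.9% of all 35116 promoters. The match nearest to the start began 31 bases before it in H2AC11, 30 in H2BC21, 32 in H3C10 and 29 in H4C8. In the letters TTATAA, matches on opposite strands overlap. The CCAAT letters were found in H2AC11, H2BC21 and H3C10 and not in the window of H4C8, against 59 of 69 listed histone promoters (85.5%) and 32.0% of all. The octamer, which binds POU-domain factors such as OCT1 in H2B promoters, was found in H2BC21, from 46 to 39 bases before the start on the opposite strand. The octamer was also found in H2AC11, from 208 to 201 bases before the start, against 27 of 69 listed histone promoters (39.1%) and 1.63% of all. A match describes the letters only. Histone genes of 1 type have near-identical coding sequences and the treatment of reads with several matches is not given in the sources used here, so the assignment of each peak to its gene is uncertain.

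The 4 genes carried 19 peaks over the 6 libraries, each in 1 unbroken block. Peak length had a median of 211 nt and ran between 60 and 660 nt. Peaks that overlapped by at least 1 base on the same strand in different libraries were joined to a site, which gave 6 sites, each called in at least 2 libraries. No peak of these genes was listed at the same position for another gene number. Positions are 1-based on hg19, as in the lists, and were not placed in coding or untranslated sequence, for want of an annotation of that build.

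**Figure D1:**
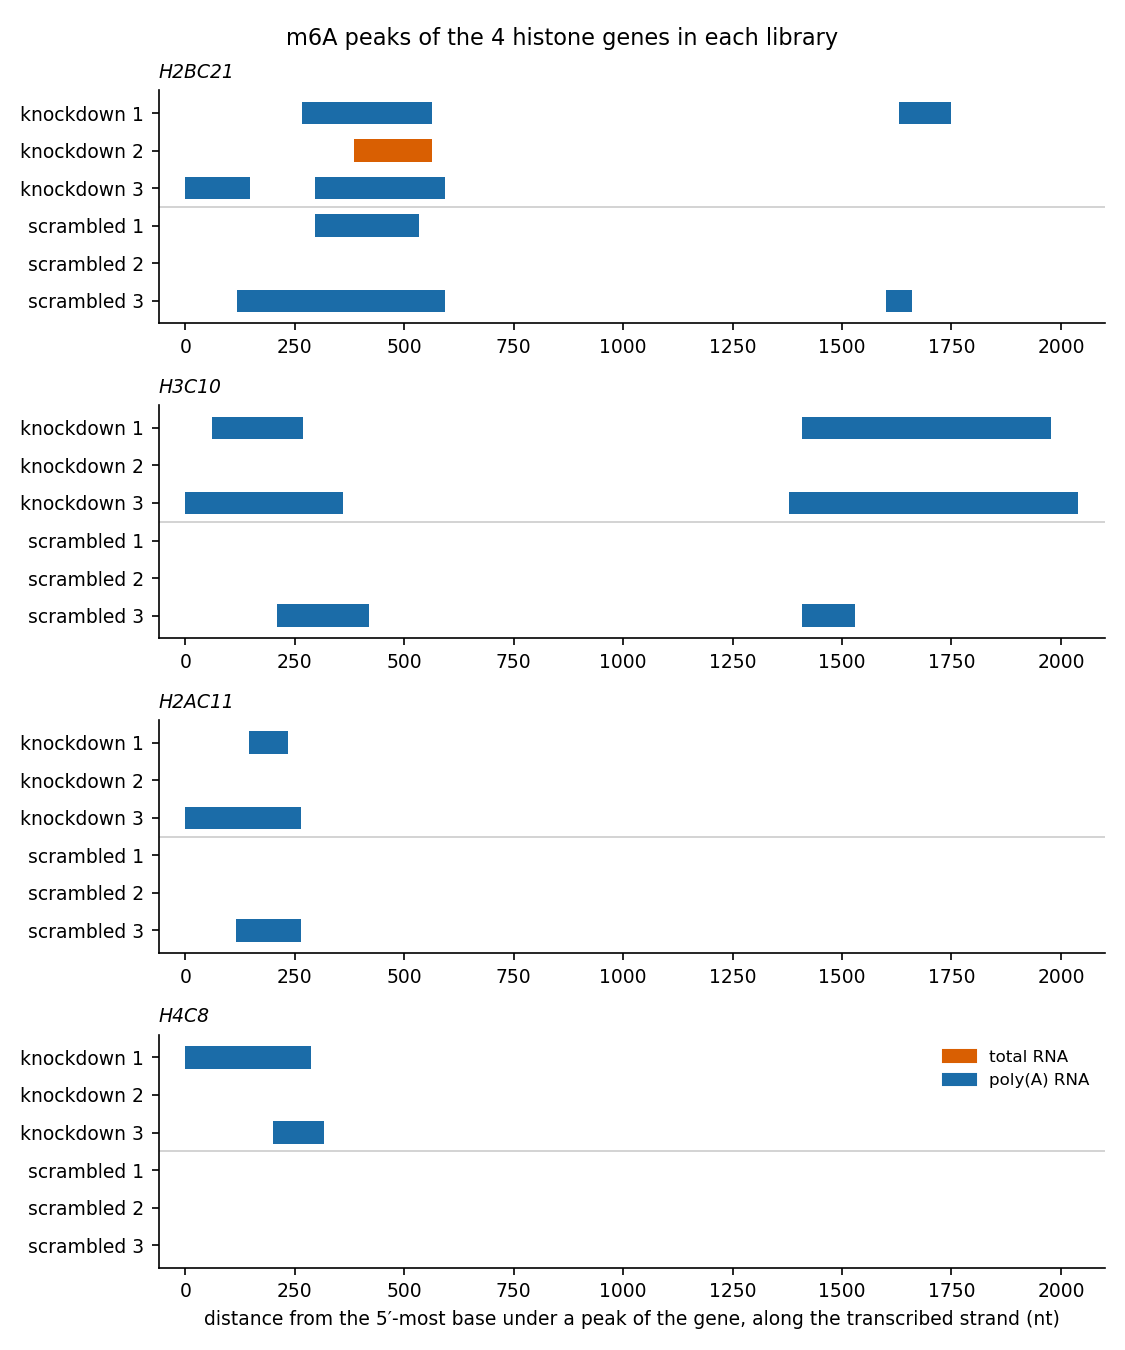
Peaks of the 4 histone genes in each library. The horizontal axis is the distance in nt from the 5′-most base under any peak of the gene, along the transcribed strand; each row is a library, knockdown replicates above scrambled replicates, and each bar a peak (orange, total RNA; blue, poly(A) RNA). H2BC21 and H3C10 have 2 separate sites each, and the 1 total RNA peak lies in the 5′ site of H2BC21.

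H2AC11 encodes a histone H2A. It had 1 site of 264 nt, on chromosome 6 from 27101051 to 27101314 on the plus strand, called in 2 knockdown and 1 scrambled library, all poly(A). The peak covered 27101197 to 27101285 (89 nt) in knockdown replicate 1 and the whole site (264 nt) in knockdown replicate 3. In scrambled replicate 3 it covered 27101168 to 27101314 (147 nt). The 89 nt of knockdown replicate 1 lay inside both other peaks.

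The score the authors deposited with each peak, taken as a p-value, was used to rank peaks within a list, here as a percentile where 100 is the best score of that list. The H2AC11 peak of knockdown replicate 3 had the highest percentile of the 19 peaks, 76.2 (score 7.9e-11, rank 4364 of 18360). In knockdown replicate 1 the H2AC11 percentile was 24.96 (score 0.0005), and in scrambled replicate 3 it was 30.5 (score 4e-05). Lists differ in length, so a percentile gives only a place within its own list. Percentiles of several libraries set side by side or pooled are therefore not like for like. Covered length of H2AC11 was 89, 0 and 264 nt in knockdown replicates 1, 2 and 3, against 0, 0 and 147 nt in the scrambled replicates. The groups overlapped, since both held libraries at 0 and the scrambled replicate 3 value lay between the knockdown replicate 1 and 3 values.

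H2BC21 encodes a histone H2B, the partner of H2A in the H2A-H2B dimer. It was called in 5 of the 6 libraries, the most of any gene on the replication-dependent list, and scrambled replicate 2 was the exception. Its 8 peaks lay on chromosome 1, minus strand, in 2 sites with 1007 nt between them. The 5′ site ran from 149857225 to 149857817 (593 nt) and was called in all 3 knockdown libraries and in scrambled replicates 1 and 3.

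The 5′ peak of H2BC21 covered 149857254 to 149857551 (298 nt) in knockdown replicate 1 and 149857254 to 149857432 (179 nt) in knockdown replicate 2, the total RNA library. In knockdown replicate 3 this site held 2 peaks, from 149857225 to 149857521 (297 nt) and from 149857669 to 149857817 (149 nt). In scrambled replicate 1 the 5′ peak covered 149857284 to 149857521 (238 nt), and in scrambled replicate 3 it covered 149857225 to 149857699 (475 nt). All 5 libraries shared 149 nt, from 149857284 to 149857432, and the total RNA peak reached past that stretch at its 3′ end only. The 3′ site, from 149856069 to 149856217 (149 nt), was called in knockdown replicate 1 (149856069 to 149856188, 120 nt) and in scrambled replicate 3 (149856158 to 149856217, 60 nt), which shared 31 nt.

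The 5′ peaks of H2BC21 stood near or above the middle of most lists. Their percentiles were 59.5 (score 3.5e-06, rank 7108.5 of 17563), 54.2 (5.8e-05, rank 2712 of 5917) and 37.5 (2.2e-05, rank 11479 of 18360) in knockdown replicates 1, 2 and 3, with the second peak of knockdown replicate 3 at 19.7. They were 56.6 (5.9e-05, rank 6564.5 of 15139) in scrambled replicate 1 and 67.3 (3e-10, rank 6131 of 18724) in scrambled replicate 3. The 3′ peaks ranked lower in the same lists, at 23.5 in knockdown replicate 1 and 4.47 in scrambled replicate 3.

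Covered length of H2BC21 was 418, 179 and 446 nt in knockdown replicates 1, 2 and 3, against 238, 0 and 535 nt in the scrambled replicates. The groups overlapped, and the highest and the lowest of the 6 values were both scrambled. The means were 347.7 ± 146.7 nt in the knockdown and 257.7 ± 268.0 nt in the scrambled libraries (SD, n = 3 each), a difference of 90.0 nt that was smaller than either SD. Each SD spans total RNA and poly(A) libraries. Knockdown minus scrambled was 180 nt in replicate 1, 179 nt in replicate 2 and -89 nt in replicate 3. The mean difference was -38.8 nt without scrambled replicate 2, with its knockdown partner kept. With only the better-scored 50% of each list it was -78.7 nt, so its direction depended on those choices. It was 54.8, 174.3 and 40.8 nt without knockdown replicate 1, 2 or 3, and 228.7 nt without scrambled replicate 3.

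H3C10 encodes a histone H3, the partner of H4 in the central tetramer of the nucleosome. It had the largest covered length of the 4 genes in every library where it was called except scrambled replicate 3, where H2BC21 had more. Its 6 peaks lay on chromosome 6, plus strand, in 2 sites 958 nt apart, from 27776277 to 27776696 (420 nt) and from 27777655 to 27778314 (660 nt). Both sites were called in the same 3 poly(A) libraries, knockdown replicates 1 and 3 and scrambled replicate 3. The 2 sites together span 2038 nt, longer than the short mRNAs that histone genes are known for. The GRCh38 distance between the upstream windows of H2AC11 and H3C10, counted on from the H2AC11 peaks, reaches past the first site. The first site may thus lie before the start of H3C10. Whether it lies in H2AC13, the gene next before H3C10, was not tested, for want of an hg19 annotation. Covered length of H3C10 counts both sites, by the gene number of the peaks.

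At the first H3C10 site the peak covered 27776337 to 27776546 (210 nt) in knockdown replicate 1, 27776277 to 27776636 (360 nt) in knockdown replicate 3 and 27776486 to 27776696 (211 nt) in scrambled replicate 3. All 3 shared 61 nt, from 27776486 to 27776546. At the second site it covered 27777685 to 27778254 (570 nt) in knockdown replicate 1, the whole site (660 nt) in knockdown replicate 3 and 27777685 to 27777805 (121 nt) in scrambled replicate 3. The 121 nt of scrambled replicate 3 lay inside both knockdown peaks.

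The order of the H3C10 sites by score was not the same in every list. In knockdown replicate 1 the second site had the higher percentile, 57.8 (score 5e-06) against 26.3 (0.00042) for the first. In knockdown replicate 3 they were close, at 67.9 (2.2e-09) for the second and 69.2 (1.3e-09) for the first. In scrambled replicate 3 the second site had the lower percentile, 12.5 (0.00095) against 39.96 (4e-06) for the first.

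Covered length of H3C10 was 780, 0 and 1020 nt in knockdown replicates 1, 2 and 3, against 0, 0 and 332 nt in the scrambled replicates. Both poly(A) knockdown values were above both poly(A) scrambled values, while both total RNA libraries were at 0, so the 3 against 3 groups overlapped. The means were 600.0 ± 533.3 nt in the knockdown and 110.7 ± 191.7 nt in the scrambled libraries (SD, n = 3 each), a difference of 489.3 nt that was smaller than the knockdown SD. Each SD spans total RNA and poly(A) libraries. By pair, knockdown minus scrambled was 780, 0 and 688 nt in replicates 1, 2 and 3. The mean difference was 789.3 nt without knockdown replicate 2, 279.3 nt without knockdown replicate 3 and 120.0 nt with all lists at the size of the shortest.

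H4C8 encodes a histone H4 and had the weakest evidence of the 4 genes. It was called in 2 libraries only, knockdown replicates 1 and 3, in 1 site of 317 nt on chromosome 6, minus strand. The peak covered 26285383 to 26285670 (288 nt) in knockdown replicate 1 and 26285354 to 26285469 (116 nt) in knockdown replicate 3, which shared 87 nt. Their percentiles were 43.4 (score 5.2e-05, rank 9935.5 of 17563) and 18.7 (0.00051, rank 14923 of 18360). Neither was in the better-scored 50% of its list.

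Covered length of H4C8 was 288, 0 and 116 nt in knockdown replicates 1, 2 and 3, and 0 nt in all 3 scrambled replicates. The knockdown replicate 2 value equalled the scrambled values, so the groups overlapped. The knockdown mean was 134.7 ± 144.9 nt (SD, n = 3), and the difference from the scrambled libraries was 58 nt without knockdown replicate 1 and 202 nt without knockdown replicate 2.

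**Figure D2:**
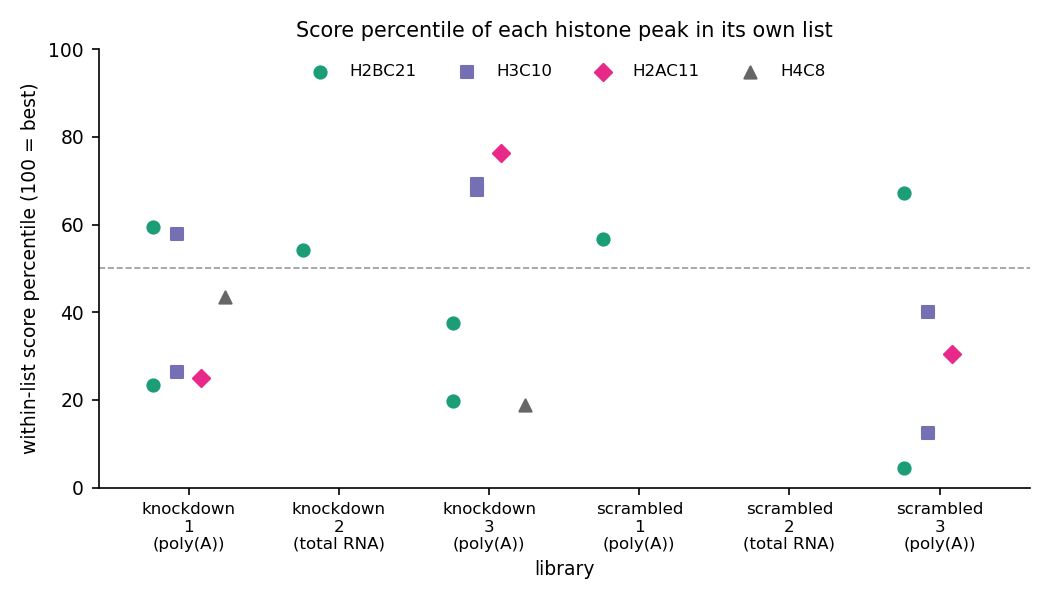
Within-list percentile of each of the 19 peaks by gene and library (vertical axis, 100 is the best score of that list; dashed line at 50), knockdown libraries left of scrambled libraries. The points spread between 4.47 and 76.2, and both H4C8 peaks lie below the line.

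By rank within their own lists the 19 peaks were spread around and below the middle, with a median percentile of 39.96, and 8 of the 19 lay above 50. Those were 1 of 3 peaks of H2AC11, 4 of 8 of H2BC21, 3 of 6 of H3C10 and 0 of 2 of H4C8. The 25 peaks of the other replication-dependent histone genes had a median of 37.1, with 7 above 50. The longest peak, 660 nt in H3C10, had a percentile of 67.9 and the shortest, 60 nt in H2BC21, had 4.47.

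In the comparison of knockdown with scrambled siRNA, which asks where loss of the demethylase leaves more of the mark, each of the 4 genes was called in more knockdown than scrambled libraries. H2AC11 was called in 2 against 1, H2BC21 in 3 against 2, H3C10 in 2 against 1 and H4C8 in 2 against 0. Over all 10536 genes, 26.1% were called in more and 17.1% in fewer knockdown libraries. Since these calls entered the choice of the genes, nothing is read from 4 of 4. Mean covered length differed by 68.7 nt in H2AC11 (117.7 ± 134.3 nt in the knockdown, 49.0 ± 84.9 nt in the scrambled libraries, SD, n = 3 each). That is within a spread that includes both RNA types. By pair, knockdown minus scrambled was 89, 0 and 117 nt in replicates 1, 2 and 3. Without knockdown replicate 3, with its scrambled partner kept, the mean difference was -4.5 nt, so its unpaired direction depended on that library. It was 127.5 nt without knockdown replicate 2 and 117.7 nt without scrambled replicate 3.

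Of the 17 replication-dependent histone genes with a peak, 11 were called in more knockdown than scrambled libraries, 2 (H2AC12 and H2BC6) in fewer and 4 in as many. Over all genes 26.1% were in more and 17.1% in fewer, which is not a like baseline. The 17 had a median of 2 libraries, against 4 over all genes. A gene called in 1 library cannot tie, and 8 of the 17 were such genes, against 1358 of 10536. Per library, 10, 1 and 12 of the 17 were called in knockdown replicates 1, 2 and 3, against 5, 0 and 8 in the scrambled replicates. That is 1.21, 0.296 and 1.32 per 1000 called genes in the knockdown libraries, against 0.713, 0 and 0.861 in the scrambled libraries. The knockdown value was the higher in each pair, but the groups overlapped, because both replicate 2 libraries were low.

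The difference in the number of these genes came mostly from replicates 1 and 3, with 1 gene, itself a member, in replicate 2. The pairs also differed over all genes. In replicate 1, 6 of them (H2AC11, H2BC10, H2BC15, H3C10, H3C4 and H4C8) were called in the knockdown only and 1 (H2AC12) in the scrambled library only, where the knockdown list was longer by 2424 peaks and 77.2% of all genes that differed were called in the knockdown only. In replicate 2 the only one that differed was H2BC21, called in the knockdown, with 52.1% of all genes that differed. In replicate 3, 5 (H2AC15, H3C8, H4C5, H4C8 and H4C9) were called in the knockdown only and 1 (H2BC6) in the scrambled library only, where the knockdown list differed by -364 peaks from the scrambled list and 44.5% of all genes that differed were called in the knockdown only. Without both libraries of replicate 1, 6 of 13 genes were called in more and 1 in fewer knockdown libraries, against 14.7% and 15.7% of all genes, and 2 of the 4 described here in more. With all 6 lists cut to the 5677 best-scored peaks, 4 of 6 were called in more and 2 in fewer, against 28.4% and 27.7% of all genes. With knockdown replicate 1 cut to the 15139 peaks of its scrambled library, it held 9 of the histone genes, against 5 in scrambled replicate 1.

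**Figure D3:**
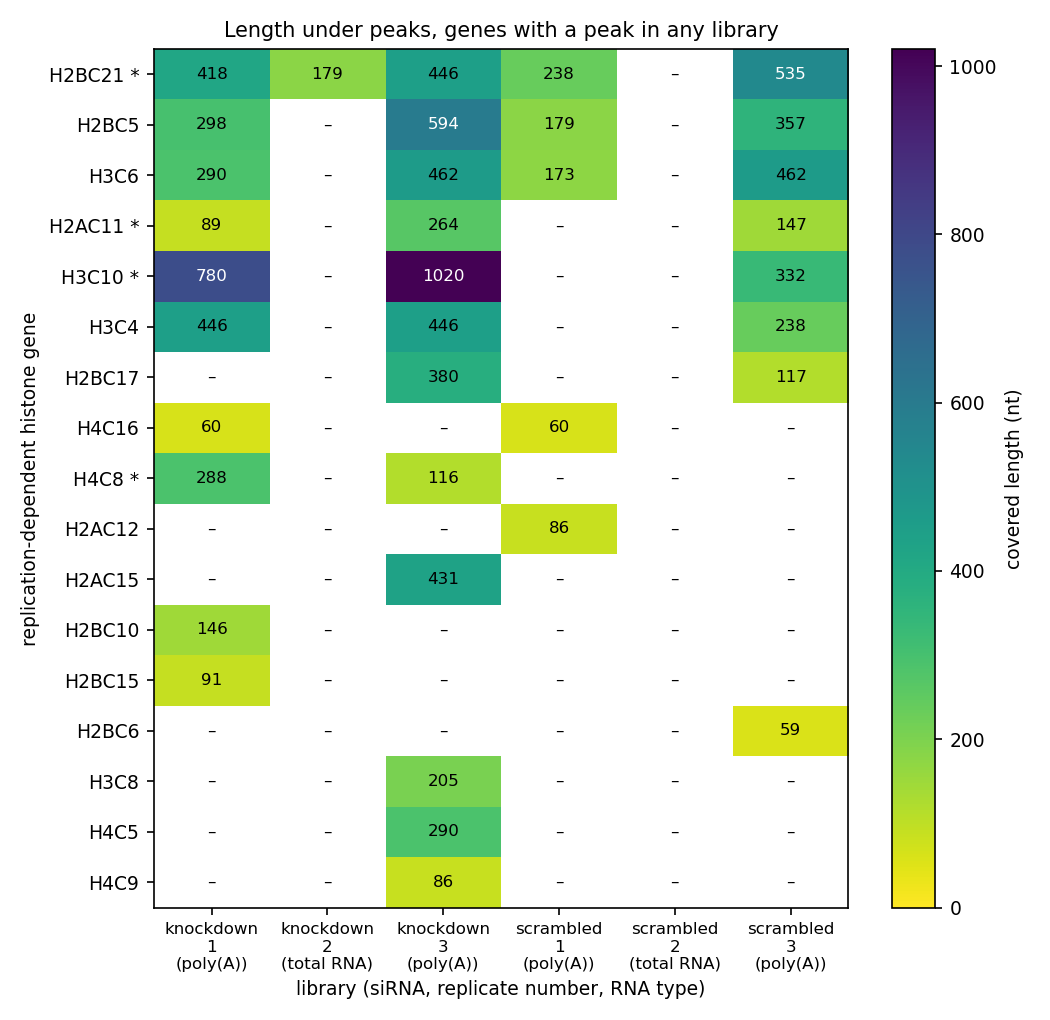
Length under peaks (nt, written in each cell; a dash is no peak) of the 17 replication-dependent histone genes with a peak, by library, knockdown left of scrambled. An asterisk marks the 4 genes described in full; the replicate 2 columns hold 1 value, 179 nt for H2BC21 in the knockdown.

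The other 13 genes showed how the calls of the family were spread over the libraries. H2BC5, an H2B gene, and H3C6, an H3 gene, were called in the same 4 poly(A) libraries. H2BC5 covered 298, 0 and 594 nt in knockdown replicates 1, 2 and 3, against 179, 0 and 357 nt in the scrambled replicates. In knockdown replicate 1 and both scrambled poly(A) libraries that length lay wholly between 26171220 and 26171576. Knockdown replicate 3 alone also had a peak from 26158468 to 26158675 (208 nt, percentile 5.69) and a block of 42 nt after it. A gap of 12367 nt parted these from the rest. H3C6 covered 290, 0 and 462 nt in the knockdown replicates, against 173, 0 and 462 nt in the scrambled replicates. Both genes were thus as long or longer in the knockdown library of each poly(A) pair, with groups that overlapped. H3C4 covered 446, 0 and 446 nt in the knockdown replicates, against 0, 0 and 238 nt in the scrambled replicates.

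Further genes were called in 1 or 2 libraries. H2BC17 had 380 nt in knockdown replicate 3 and 117 nt in scrambled replicate 3, and H4C16 had 60 nt in knockdown replicate 1 and in scrambled replicate 1. The H4C16 peaks met only at base 14923918, with percentiles of 0.0626 in the knockdown and 21.4 in the scrambled library. The rest were in a single library each. These were H2AC15 (431 nt), H4C5 (290 nt), H3C8 (205 nt) and H4C9 (86 nt) in knockdown replicate 3, H2BC10 (146 nt) and H2BC15 (91 nt) in knockdown replicate 1, H2AC12 (86 nt) in scrambled replicate 1 and H2BC6 (59 nt) in scrambled replicate 3. In all, 8 of the 17 genes were called in 1 library only and 9 in at least 2, against 87.1% of all genes with a peak in at least 2, and none in all 6, against 2452 of all genes. All 4 genes described in full were among the 9, which the choice favoured. Of the 44 peaks of the family 43 were 1 block, and the exception, an H2BC5 peak of knockdown replicate 3, joined 2 blocks that lay 12367 nt apart.

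In the comparison of total RNA with poly(A) RNA, which asks whether tail-less histone mRNAs are called more where no poly(A) selection was made at the start, the calls were nearly all in poly(A) libraries. Total RNA held 1 of the 19 peaks, that of H2BC21 in knockdown replicate 2, and poly(A) libraries the other 18. Of the 4 genes, 1 was called in a total RNA library, and of the 17 also 1, against 39.2% of all genes called in at least 1 poly(A) library. These calls, too, entered the choice. Antibody and kit differ with RNA type, and the total RNA lists were the shortest, so none of these can be told apart here.

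Covered length averaged lower in total RNA for each gene. H2BC21 had 179 and 0 nt in total RNA, against 418, 446, 238 and 535 nt in poly(A) RNA, where the poly(A) mean was 409.3 ± 124.6 nt (SD, n = 4). Its groups did not overlap. H3C10 was at 0 nt in both total RNA libraries and averaged 533.0 ± 455.6 nt over the poly(A) libraries (SD, n = 4), of which scrambled replicate 1 was also at 0. The poly(A) means were 125.0 ± 110.6 nt for H2AC11 and 101.0 ± 136.1 nt for H4C8 (SD, n = 4), against 0 nt in both total RNA libraries. Their groups overlapped at 0.

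The number of poly(A) libraries in which a gene was called went with its calls in total RNA. Of all genes called in 1, 2, 3 or 4 poly(A) libraries, 2.77%, 4.68%, 17.8% and 60.3% were also called in total RNA. Of the histone genes, these were 0 of 8, 0 of 3, 0 of 3 and 1 of 3. H2BC21 was the 1 of the last 3, while H2BC5 and H3C6, also called in all 4 poly(A) libraries, had no total RNA peak. With so few histone genes, counts of 0 below 4 poly(A) libraries are close to those shares.

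**Figure D4:**
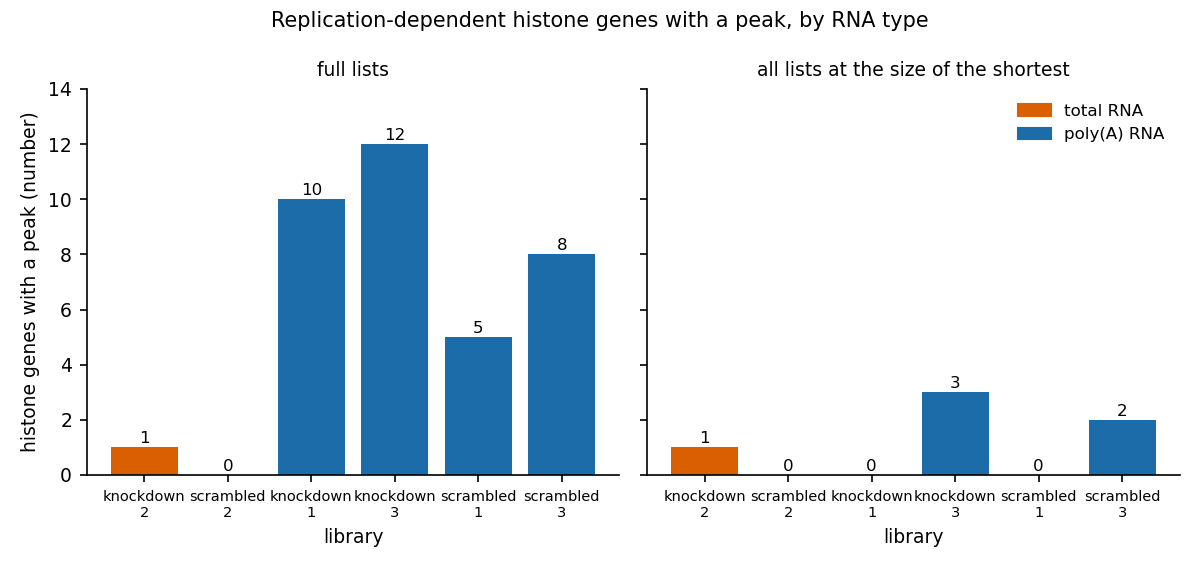
Number of replication-dependent histone genes called in each library, total RNA libraries left of poly(A) libraries, in the full lists and with every list cut to the 5677 best-scored peaks of its own. In the full lists the total RNA libraries have 1 and 0 genes and the poly(A) libraries 5 to 12; at equal size the poly(A) libraries have 0 to 3.

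List length mattered to this comparison. With each list cut to its 5677 best-scored peaks, histone genes called numbered 1 in knockdown and 0 in scrambled total RNA, against 0, 3, 0 and 2 in poly(A) knockdown replicates 1 and 3 and scrambled replicates 1 and 3. Of the 4 genes, H2BC21 was then called in total RNA only (179 nt in knockdown replicate 2), and H2AC11 (264 nt) and H3C10 (360 nt) in knockdown replicate 3 only. The difference of H2BC21, total RNA minus poly(A), was then 89.5 nt, against -319.75 nt with full lists. That cut was not even. It left the 5677 peaks of scrambled replicate 2 whole and most of the 5917 of knockdown replicate 2, but removed most of each poly(A) list (15139 to 18724 peaks). The H2BC21 peak of scrambled replicate 3 (score 3e-10) was dropped, and that of knockdown replicate 2 (5.8e-05) was kept. H4C8 had no peak left.

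The lists also bore on the surroundings of the 4 genes. In RefSeq's GRCh38.p14 order each has other histone genes beside it, and most of these had no peak. H2BC10 beside H4C8 and H4C9 beyond H2AC11 were called in 1 library each, while H3C15, H2AC19, H2AC20 and H2AC21 around H2BC21 were called in none. H2AC13, H2BC13, H2AC14 and H2BC14 around H3C10 were called in none either, and neither were H2BC11 and H2BC12 next to H2AC11. These calls go by the gene number of each peak, and the gene order is from another build. The first H3C10 site therefore counts for H3C10 alone, although its place relative to H2AC13 was not tested. On the opposite strand, no peak of another number or of none lay between the first and last peak base of any of the 4 genes. The full extent of the genes was not searched.

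Genes with other parts in histone biology are given by their counts. Over all genes, 26.1% were called in more and 17.1% in fewer knockdown libraries, and 39.4% in total RNA. Of 12 replacement variant genes, 9 were called, and 2 of the 9 (22.2%) in total RNA. By siRNA, 3 were called in more, 2 in fewer and 4 in as many knockdown as scrambled libraries. H2AX, the variant phosphorylated at DNA breaks, was called in all 6 libraries, and the linker histone H1-10 and the variant H2AJ in 4 each. H1-10 was called in 3 knockdown libraries and 1 scrambled library, H2AZ1 in 1 against 0, H2AZ2 in 0 against 1 and MACROH2A1 in 0 against 1.

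Of 18 genes for the 3′ end formation and decay of histone mRNA, 16 were called, 5 in more, 3 in fewer and 8 in as many knockdown libraries, and 8 of the 16 in total RNA. CASP8AP2 (FLASH, a processing factor), the terminal uridylyltransferase gene TUT7 and the helicase gene UPF1 were called in all 6 libraries. CASP8AP2 had 9, 1 and 6 peaks in knockdown replicates 1, 2 and 3, against 4, 2 and 7 in the scrambled replicates. CPSF2, a subunit of the cleavage complex, was called in 2 knockdown and 3 scrambled libraries, as was ERI1, the exonuclease that trims the stem-loop. CSTF2 was called in 1 against 0 and LSM10, a U7 snRNP protein, in 3 against 2. SLBP had 1, 0 and 1 peaks in the knockdown replicates, against 0, 0 and 1 in the scrambled replicates.

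Of 14 histone chaperone genes, 12 were called, 3 in more, 2 in fewer and 7 in as many knockdown libraries, and 8 of the 12 (66.7%) in total RNA. ATRX, CHAF1A, DAXX and HJURP were called in all 6 libraries. SSRP1, a subunit of the FACT complex, was called in 2 knockdown libraries and 0 scrambled libraries. HIRA was called in 3 against 2, ASF1A in 2 against 3 and CHAF1B in 1 against 2.

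Other genes shared the pattern of covered length over the 6 libraries. Likeness was the mean absolute difference of log2(covered nt + 1), where 0 is an identical pattern. Nearest to H2AC11 were LIMD1-AS1 (0.014), ARPC5 (0.066) and TMEM42 (0.077), and nearest to H2BC21 were SDHAF2 (0.048), HOXA-AS3 (0.12) and ALDH1A3 (0.13). Nearest to H3C10 were ANKRD19P (0.062), TMEM184A (0.096) and QTGAL (0.13), and nearest to H4C8 were ISG15 (0.047), ZCCHC18 (0.072) and DBNL (0.077). None of these 12 genes is a histone gene.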

How the data were processed

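The members and gene lists were chosen with earlier results of these data known. Per the submitters' processing notes, CASAVA 1.8.2, TopHat2, SAMtools and hg19 were used. Tool roles, peak caller and threshold, and whether inputs entered the calling, were not given in the sources used here. Peaks were called per library, not on pooled samples: each deposited list gave a position, strand, exon blocks, gene number and score per peak. The authors' deposited score, a bare score per the file headers, was read as a p-value because no value exceeded 0.011. It served to order peaks inside 1 list and nothing else. The 6 inputs were not analysed here, and 1 of them, scrambled replicate 3, has contradictory labels on its sample type.

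Samples were grouped by title and treatment label. Covered length was the exon nt under peaks with a gene's number, 0 where there was none, and percentiles used ranks with ties averaged. Of 10536 gene numbers, 10500 matched a symbol in a RefSeq table (GRCh38.p14), used for names, neighbours and promoters. Motifs were sought on both strands of the 250 bases upstream. The named genes were the 4 members, all 13 other called replication-dependent histone genes, up to 4 genes of each other list by libraries called and up to 4 by difference between siRNAs, and the 3 genes nearest to each member by pattern. Some genes under this rule and some markers are not reported here. The planned exact permutation tests of covered length are not reported, since the members were chosen on the same lists; values stand as descriptions. The protocol in the labels ties each replicate number to an RNA type and antibody, so same-numbered libraries were paired. Alternatives were the better-scored 50% of each list, all lists at the size of the shortest, peaks of 1 gene only, any peak at a gene's position and strand, standard chromosomes, a stricter overlap (50% of the shorter peak), each library left out, a replicate block and single poly(A) replicates. Chosen after seeing the data were the longer list of each pair at the size of the shorter, and each replicate pair left out. Python 3.11.15, numpy 2.4.6, pandas 2.3.3 and matplotlib 3.10.9 were used, and the counting was tested on simulated data.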

Additional observations from a re-analysis of the deposited data

Results flagged for a closer look

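Covered length of H2BC21 moved in opposite directions in the poly(A) pairs, with knockdown minus scrambled at 180 nt in replicate 1 (418 nt against 238 nt) and -89 nt in replicate 3 (446 nt against 535 nt). The difference between the pairs was not tested, and the antibody differed between them.

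H4C8 was also covered by peaks without a gene number on the same strand, which entered none of the counts of genes. In knockdown replicate 1 such a peak ran from 26285349 to 26285644 (296 nt, percentile 55.9) and overlapped the numbered peak by 262 nt. In knockdown replicate 3 it ran from 26285349 to 26285437 (89 nt, percentile 11.7) with an overlap of 84 nt. No such peak lay there in any scrambled library, where the nearest, in replicate 3, was 3568 nt away. Overlap of this kind was common, since 65.1%, 82.4% and 60.9% of unnumbered peaks in knockdown replicates 1, 2 and 3 overlapped a numbered one, against 68.4%, 84.6% and 58.9% in the scrambled replicates. Among 5 checks of the poly(A) libraries, none flagged a library. Scrambled replicate 1 was still the lowest of the 4, with 7010 called genes, a median peak length of 209 nt and 1 of the 4 histone genes called. The other poly(A) libraries had 8267 to 9288 called genes, medians of 269 to 331 nt and 3 to 4 of these histone genes.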

How the results depend on the processing

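Of 135 values under alternatives for 10 differences, 128 moved by less than 1 SD between replicates and 7 by more, all under shorter lists. For knockdown minus scrambled that SD spans both RNA types and is wide (400.7 nt for H3C10), so a move within it can be large. With the better-scored 50% of each list, H4C8 (knockdown minus scrambled) was 0 nt, H2BC21 (total RNA minus poly(A)) -163.25 nt and the number of replication-dependent histone genes (total RNA minus poly(A)) -2.75, against -8.25 with full lists. With all lists at the size of the shortest, the same were 0 nt, 89.5 nt and -0.75, and H3C10 (total RNA minus poly(A)) was -90.0 nt. This last setting shortened the poly(A) lists far more than the total RNA lists. With 1 library left out and its partner kept, knockdown minus scrambled ran from -4.5 to 127.5 nt for H2AC11, below 0 only without knockdown replicate 3. It ran from -38.8 to 228.7 nt for H2BC21 and from 279.3 to 789.3 nt for H3C10. The number of called genes, 3.33 higher in the knockdown on average, ran from 1.17 (without knockdown replicate 3 or scrambled replicate 2) to 6.67 (without knockdown replicate 2), and was 2.17 without knockdown replicate 1 and 5.17 without scrambled replicate 3. It was 2 with the better-scored 50% and 0.667 with all lists at the size of the shortest. Total RNA minus poly(A) was -38.7 nt for H4C8 without knockdown replicate 1 and -78.7 nt for H2AC11 without knockdown replicate 3. In paired form (replicate block) the mean differences equal the unpaired ones by construction, with 1 library of each siRNA per number (90.0 nt for H2BC21). Those 5 of the 128 say nothing about stability. All values for standard chromosomes only, and for peaks of 1 gene only, equalled the main values, because the histone peaks were unaffected. They add nothing on stability either. Most values with the longer list of each pair cut, or with any peak at a gene's position, also equalled the main ones. A stricter overlap gave H2BC21 3 sites and changed no other gene. With the longer list of each pair at the size of the shorter, 11 of 17 genes were in more and 3 in fewer knockdown libraries, against 23.4% and 19.2% of all genes. Depth is unknown.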
